A study of Saccharomyces cerevisiae with 4 samples.

Results

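The iron and copper uptake genes examined here were 10 genes of the budding yeast Saccharomyces cerevisiae, chosen by name: FRE1, FET3, FTR1, CCC2, SIT1, ARN1, FIT2, FIT3, MRS4 and HMX1. They were 10 of the 5656 genes measured, and each was read by 1 probe set listed for that gene alone. Their levels were compared between 4 strains, with 1 Affymetrix Yeast Genome S98 array per strain, hybridised with total RNA of exponentially growing cells. The 4 strains were W303-1A, a haploid laboratory wild type, and mutants that lacked UBP10 (the ubp10 null, called the ubp10 mutant), SIR4 (the sir4 null) or both genes (the ubp10 sir4 double null). The arrays of the last 2 are called the sir4-labelled and the double-labelled array, because the deposited SIR4 values do not show the loss of SIR4 that their labels name. The Ubp10 protease strips ubiquitin off histone H2B, and SIR4 encodes a subunit of the silencing complex of telomeres and silent mating cassettes. The labels name W303-1A for the wild type alone. The deletion alleles of the mutants, and the medium with its iron and copper content, are not given in the sources used here.

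Yeast takes up iron by several routes. Surface reductases such as Fre1 reduce ferric iron and cupric copper, and ferrous iron then enters through a complex of the multicopper oxidase Fet3 and the permease Ftr1. Fet3 needs copper, which the chaperone Atx1 hands to the Golgi pump Ccc2. Iron bound to siderophores, which are microbial iron chelators, is held in the cell wall by mannoproteins such as Fit2 and Fit3 and imported by transporters such as Sit1 and Arn1. Mrs4 carries iron into mitochondria, and the heme oxygenase Hmx1 frees iron from heme. The activators Aft1 and Aft2 turn most of these genes on when iron is low, while FRE1 and the copper transporters CTR1 and CTR3 also respond to the copper-sensing activator Mac1.

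Values are the deposited intensities, on a linear scale, and a level is compared between arrays only within 1 probe set. The noise SD was 2.22 units. Every value under 6.67 units, which is 3 times that SD, was set to this floor. A call of higher or lower needed a ratio of at least 2 between the arrays and at least 13.3 units on the brighter of them. With 1 array per strain there is no replicate error and no test, so a call is a statement of size about these arrays. All 40 values of the 10 genes lay above the floor. The median log2 ratio to wild type, over genes measured above the floor on each array of a pair, was -0.04 in the ubp10 mutant, 0.49 on the sir4-labelled array and 0.54 on the double-labelled array. Ratios described as relative are relative to that median.

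The arrays were checked against their labels. UBP10 read 247.9 units in wild-type cells and 269.2 on the sir4-labelled array, and was at the floor in the ubp10 mutant and on the double-labelled array. SIR4 was dim, with 10.8 units in wild-type cells, the floor of 6.7 in the ubp10 mutant, 20.7 on the sir4-labelled array and 15.5 on the double-labelled array. Both arrays labelled as SIR4 deletions thus read above both arrays labelled as carrying the gene as deposited, which goes against the labels. That order was found for 48.3% of all genes. Relative to the median, the log2 ratio of SIR4 to wild type was 0.45 on the sir4-labelled array and -0.02 on the double-labelled array, so the order was lost on that scale. The double-labelled array was 2.32-fold above the ubp10 mutant as deposited, a call that was lost with the median ratio centred, and the ratios to wild type, 1.92- and 1.44-fold higher, were short of a call. The files do not say whether the SIR4 probes lie inside the deletion. Every direction below that is drawn from the sir4 genotype follows the labels, although these values do not show the loss of SIR4. The sir4-labelled array differed from the others in RNA controls. The 3′ probe set of ACT1, the actin gene, was 86.9 times as bright as the 5′ probe set there and 1.1 to 1.5 times on the other 3. For SPT15, the TATA-binding protein, the ratio was 18.7 there and 1.5 to 2.1 on the others. This difference touches every value from that array, and its part in the results was not tested.

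**Figure D1:**
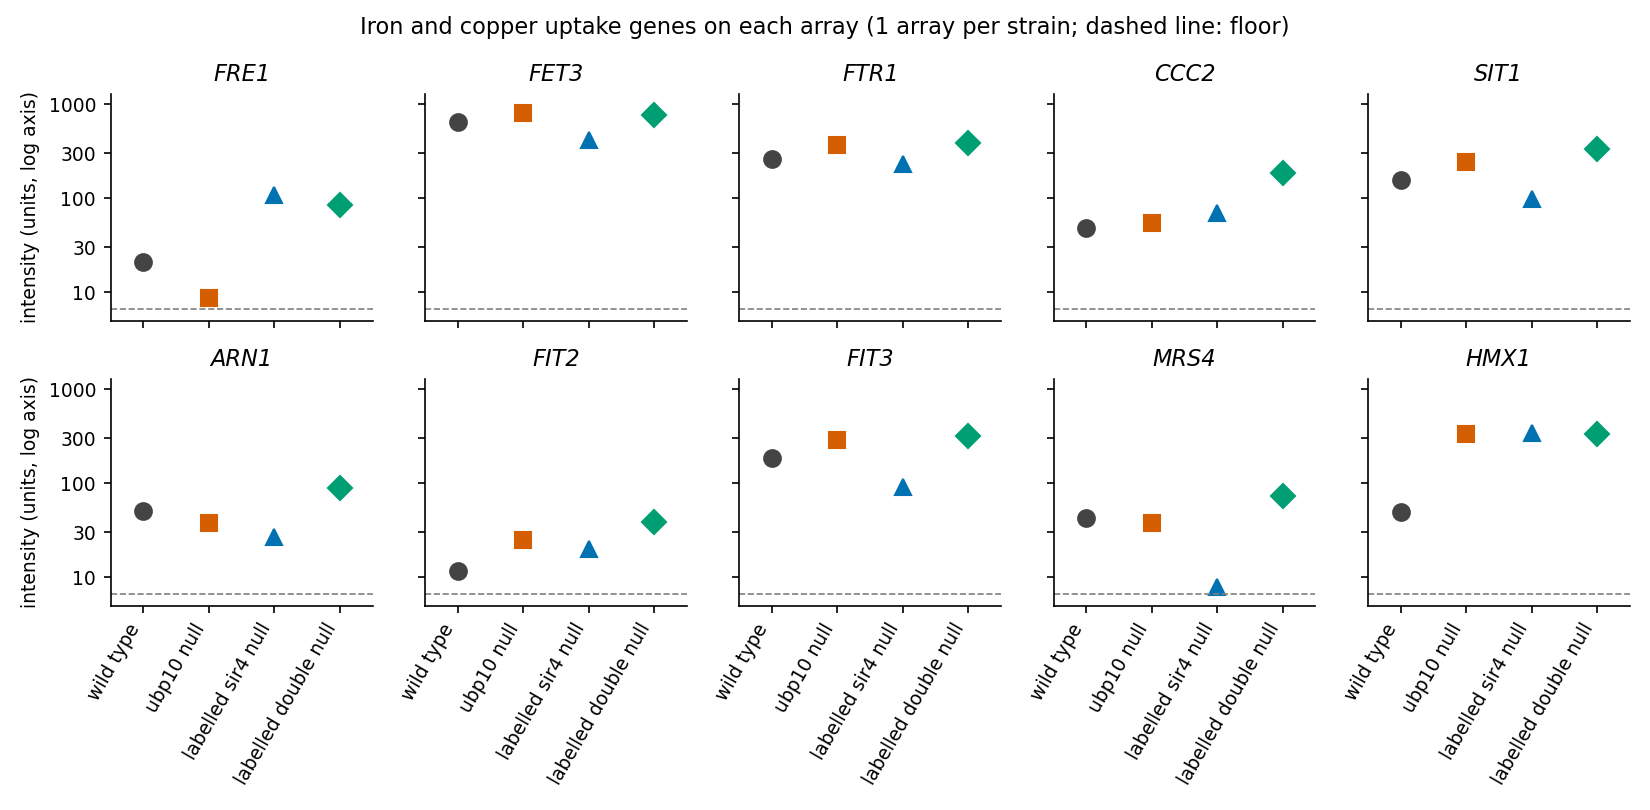
Intensity of each of the 10 genes (vertical log axis, units) on the 4 arrays (horizontal axis), 1 point per array, with the floor of 6.67 units dashed. HMX1 is high on all 3 mutant arrays, FRE1 on the sir4-labelled array and on the double-labelled array, and MRS4 falls close to the floor on the sir4-labelled array alone.

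FRE1, the reductase gene, had its 2 highest values in both strains labelled as SIR4 deletions. It read 21.1 units in wild-type cells, 8.6 in the ubp10 mutant, 107.2 on the sir4-labelled array and 85.2 on the double-labelled array. The span from lowest to highest was 12.47-fold, the widest of the 10 genes. Against wild type, FRE1 was 5.08-fold higher as deposited on the sir4-labelled array (3.61-fold relative) and 4.04-fold higher on the double-labelled array (2.77-fold relative). In the ubp10 mutant it was 2.45-fold lower, but the value there lay 0.87 noise SDs above the floor, and the call was lost with the floor doubled or with a higher brightness minimum. The double-labelled array exceeded the ubp10 mutant 9.91-fold (7.01-fold relative), a ratio reached by 8 of the 4932 genes bright enough to be called in that comparison, FRE1 included. That ratio divides by the same value close to the floor, and its log2 of 3.31 became 2.67 with the floor doubled and 2.56 under cyclic loess.

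FET3 and FTR1, the high-affinity uptake pair, varied little. FET3 read 639.3 units in wild-type cells, 804.0 in the ubp10 mutant, 413.0 on the sir4-labelled array and 770.6 on the double-labelled array. FTR1 read 263.5, 367.3, 229.7 and 382.2 units in the same order. Both genes were lowest on the sir4-labelled array and higher than wild type, as deposited, in the ubp10 mutant and on the double-labelled array. Their spans were 1.95-fold and 1.66-fold, the narrowest of the 10, and neither gene was called in any of the 5 comparisons as deposited. Relative to the median, FET3 lay 2.18-fold lower than wild type on the sir4-labelled array, past the ratio for a call. Under quantile normalization and cyclic loess its log2 ratio was -0.42 and -0.44, short of a call. On the double-labelled array the direction of FET3 against wild type depended on the scale, with a log2 ratio of 0.27 as deposited, -0.27 relative to the median and 0.68 under quantile normalization.

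CCC2, the pump that loads copper into Fet3, stood out on the double-labelled array. It read 48.0 units in wild-type cells, 54.5 in the ubp10 mutant, 68.9 on the sir4-labelled array and 183.9 on the double-labelled array. The first 3 values lay close together and the fourth was set apart from them. The double-labelled array was 3.83-fold above wild type (2.63-fold relative), 3.37-fold above the ubp10 mutant (2.39-fold relative) and 2.67-fold above the sir4-labelled array. CCC2 was the only one of the 10 genes called higher on the double-labelled array against all 3 other arrays. It was not called on either single-deletion array, where its log2 ratio to wild type was 0.18 (ubp10 mutant) and 0.52 (sir4-labelled array).

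SIT1 and ARN1, the transporters of ferrioxamine and of ferrichrome-type siderophores, were lowest on the sir4-labelled array and highest on the double-labelled array. SIT1 read 157.0 units in wild-type cells, 245.2 in the ubp10 mutant, 97.0 on the sir4-labelled array and 329.9 on the double-labelled array. ARN1 read 50.3, 37.4, 26.6 and 90.1 units in the same order. From the sir4-labelled array to the double-labelled array the rise was 3.40-fold for SIT1 and 3.39-fold for ARN1, ratios reached by 2.80% and 2.82% of the 4897 genes bright enough to be called. Relative to wild type the sir4-labelled array was 2.28-fold lower for SIT1 and 2.66-fold lower for ARN1, calls that the values as deposited (1.62- and 1.89-fold lower) did not make. On the double-labelled array SIT1 was 2.10-fold above wild type as deposited and 1.44-fold relative, so this call was lost when the median ratio was centred.

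FIT2 and FIT3, which encode cell wall mannoproteins, are neighbours on chromosome XV but differed in brightness and in pattern. FIT3 read 184.2 units in wild-type cells, 291.3 in the ubp10 mutant, 91.9 on the sir4-labelled array and 320.2 on the double-labelled array, the same order of arrays as SIT1. It was 2.0-fold lower on the sir4-labelled array than in the wild type as deposited, just past the ratio for a call, and 2.82-fold lower relative to the median. The double-labelled array was 3.48-fold above the sir4-labelled array. FIT2 was dim, with 11.7, 25.2, 20.0 and 39.1 units, and was lowest in the wild type. It was 2.15-fold higher than wild type in the ubp10 mutant and 3.34-fold higher on the double-labelled array (2.29-fold relative). Its wild-type value was 2.26 noise SDs above the floor, and the first of these calls was lost with the floor doubled and under cyclic loess, which also ended the second.

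The chromosome neighbours of this pair are reductase genes, in the order FRE3, a short open reading frame, FIT2, FIT3, FRE5, which are the 16th to 12th protein-coding genes from the nearer chromosome end in the R64 gene table. FRE3 read 8.0 units in wild-type cells, 29.4 in the ubp10 mutant, 12.1 on the sir4-labelled array and 11.6 on the double-labelled array, and FRE5 was at the floor on all 4 arrays. In the ubp10 mutant FRE3 and FIT2 were both called higher than wild type, 3.67- and 2.15-fold, and FIT3 was 1.58-fold higher, short of a call. On the double-labelled array FIT2 and FIT3 had their highest values, while FRE3 was 1.45-fold above wild type and not called. The wild-type value of FRE3 lay close to the floor, so its ratios are poorly fixed. SIT1 and ARN1 also lie near chromosome ends, 13th and 12th in the same count, whereas the other 6 genes lie at least 52 genes in. The 4 end-proximal genes had log2 ratios of 0.97 (FIT2), 1.76 (ARN1), 1.77 (SIT1) and 1.80 (FIT3) on the double-labelled array against the sir4-labelled array. Of the other 6 genes, MRS4 had 3.24, CCC2 1.42, FET3 0.90, FTR1 0.73, HMX1 -0.02 and FRE1 -0.33. All these ratios divide by the array with the high 3′ to 5′ control ratios, and a link to position was not tested. FRE3 and FRE5 were chosen for their position after the values were seen.

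MRS4, the mitochondrial iron carrier, fell on the sir4-labelled array alone. It read 42.8 units in wild-type cells, 38.3 in the ubp10 mutant, 7.8 on the sir4-labelled array and 73.9 on the double-labelled array. The low value lay 0.51 noise SDs above the floor, so the size of the fall, 5.49-fold as deposited and 7.72-fold relative, is poorly fixed. A ratio at least as low was found for 46 of the 4786 genes bright enough to be called in that comparison, MRS4 included. The double-labelled array was 9.47-fold above the sir4-labelled array, and the other 3 arrays spanned less than a call between any pair as deposited, the widest ratio being 1.93. MRS4 has 1 probe set, and the files do not state where along the transcript its probes lie.

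HMX1, the heme oxygenase gene, was called higher in all 3 mutants. It read 49.3 units in wild-type cells, 335.3 in the ubp10 mutant, 341.4 on the sir4-labelled array and 337.5 on the double-labelled array. The 3 mutant values lay within 1.02-fold of each other, while the wild type stood apart. The rise was 6.80-fold in the ubp10 mutant, 6.92-fold on the sir4-labelled array (4.92-fold relative) and 6.85-fold on the double-labelled array (4.70-fold relative). These 3 ratios share the wild-type array, so an error in the reading of HMX1 on that 1 array would enter all of them. Among genes bright enough to be called, 57 of 4657, 25 of 4786 and 20 of 4835 had ratios at least as high, HMX1 included. The call held under every alternative computed.

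Counted over the 10 genes, the ubp10 mutant had 2 called higher than wild type (HMX1 and FIT2) and 1 lower (FRE1). Among all genes 9.44% were called higher and 8.42% lower, so the counts are close to that background, and without HMX1 the log2 ratios ran from -1.29 to 1.11. The median log2 ratio of the 10 was 0.40, against 0.00 over all genes. FET3, FTR1, SIT1 and FIT3 had log2 ratios of 0.33, 0.48, 0.64 and 0.66, each short of a call.

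On the sir4-labelled array, HMX1 and FRE1 were called higher than wild type and MRS4 and FIT3 lower, against 19.8% of all genes higher and 4.47% lower. The higher calls were thus at the background share. With the median ratio centred, 2 were higher and 5 lower (MRS4, FET3, SIT1, FIT3 and ARN1), against 6.03% and 9.65% of all genes. The median log2 ratio of the 10 was -0.41 as deposited, against 0.41 over all genes. Of the 6 genes of the Fet3-Ftr1, siderophore and cell wall routes, FIT2 alone lay above the median gene, with a relative log2 ratio of 0.28, and the other 5 lay between -1.5 and -0.69.

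On the double-labelled array, 5 genes were called higher than wild type (HMX1, FRE1, CCC2, SIT1 and FIT2) and 0 lower, against 18.6% and 2.07% of all genes. With the median ratio centred, 4 were higher and 0 lower, against 4.30% and 6.63%; SIT1 was the gene that dropped out. The median log2 ratio was 0.96, against 0.47 over all genes. FET3 and FTR1 did not pass the median gene, with relative log2 ratios of -0.27 and -0.01.

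**Figure D2:**
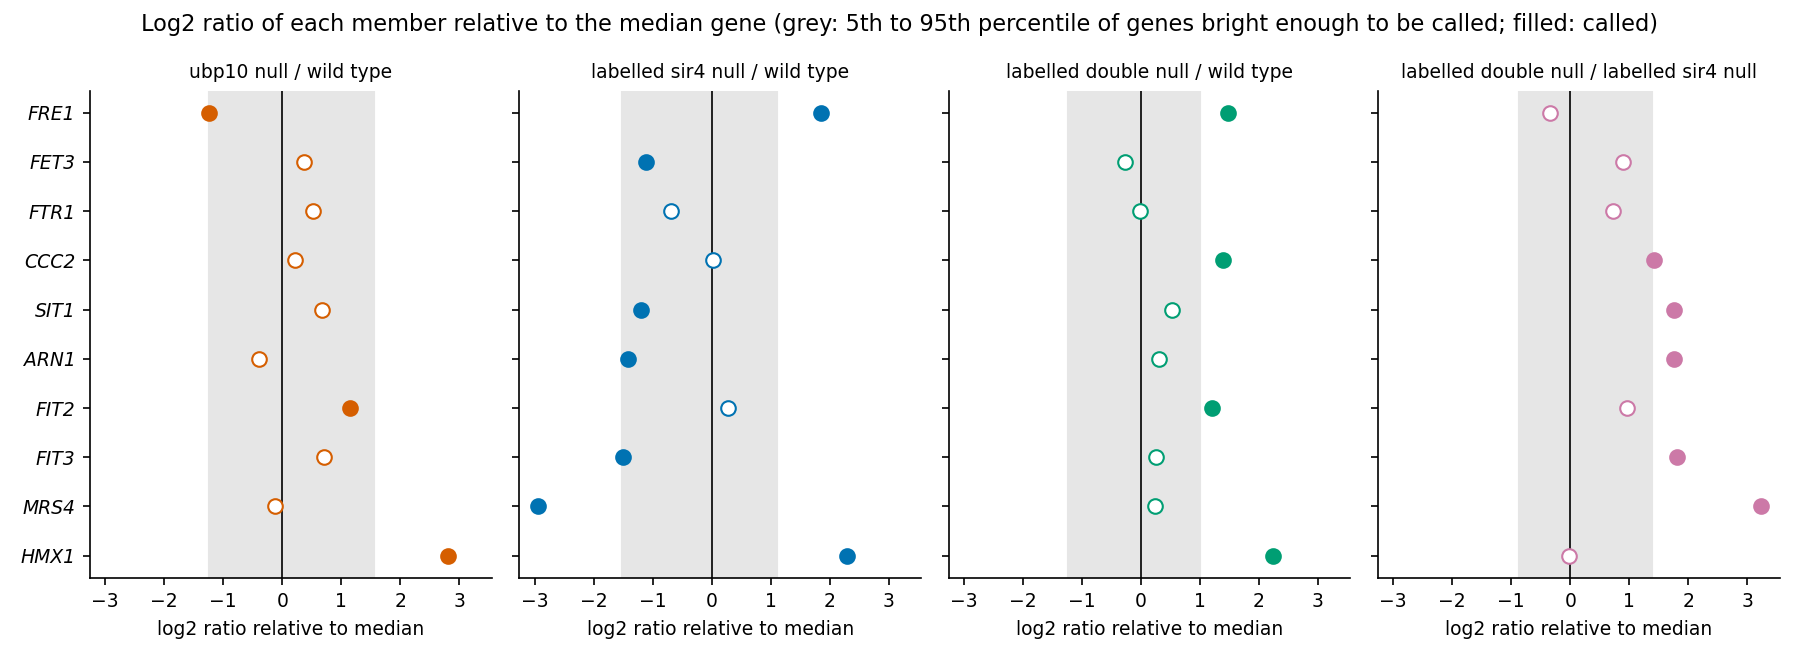
Log2 ratio of each of the 10 genes (rows) relative to the median gene in 4 comparisons (panels, horizontal axis in log2 units), with the 5th to 95th percentile of genes bright enough to be called in grey and filled points for genes called after centring. The sir4-labelled array has 5 filled points to the left of 0, and the double-labelled array against that array has 5 to the right.

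The double-labelled array was compared with each single null. Against the sir4-labelled array, a comparison that by the labels removes UBP10 from cells already without SIR4, 5 of the 10 genes were higher (MRS4, FIT3, SIT1, ARN1 and CCC2) and 0 lower, against 7.94% and 3.11% of all genes. The median log2 ratio of the 10 was 1.19, against 0.00 over all genes, and the count was again 5 with the median ratio centred, against 7.90% higher and 3.15% lower. FET3, FIT2 and FTR1 had log2 ratios of 0.90, 0.97 and 0.73, short of a call, and HMX1 and FRE1 had -0.02 and -0.33. All 5 genes called here were higher against the array with the high 3′ to 5′ ratios. With that array absent from the comparison, on the double-labelled array against wild type, their relative log2 ratios were 0.24 (MRS4), 0.25 (FIT3), 0.53 (SIT1), 0.30 (ARN1) and 1.39 (CCC2).

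Against the ubp10 mutant, 3 genes were higher on the double-labelled array (FRE1, CCC2 and ARN1) and 0 lower, against 28.3% and 6.26% of all genes. With the median ratio centred, FRE1 and CCC2 were higher and 0 were lower, against 13.4% and 13.2%. These shares are near the background. HMX1, FET3, FTR1 and FIT3 had log2 ratios of 0.01, -0.06, 0.06 and 0.14 as deposited.

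The arrays were also split by labelled genotype, 2 without a gene against 2 with it. As deposited, FET3, FTR1, SIT1, FIT2 and FIT3 each read higher in both strains lacking UBP10 than in either strain that had it, which makes 5 of 10 against 15.3% of all genes. These were 5 of the 6 genes of the Fet3-Ftr1, siderophore and cell wall routes, and ARN1 was the exception. The genes were chosen with earlier results of these data known, so this count is a description only. For FET3 the gap was small, with 770.6 units on the double-labelled array against 639.3 in the wild type. For FTR1 it was 367.3 in the ubp10 mutant against 263.5 in the wild type. Relative to the median ratio the count was 4, against 13.0% of all genes: SIT1, FIT2 and FIT3 stayed, CCC2 joined them, and FET3 and FTR1 dropped out. Split by SIR4, the genes HMX1, FRE1 and CCC2 were higher on both arrays labelled as lacking it as deposited, against 48.3% of all genes. For HMX1 this rests on a very small gap, since its 3 mutant values lay within 1.02-fold of each other. Relative to the median ratio FRE1 alone was higher, against 22.6% of all genes. On that relative scale FET3 and FTR1 lay lower in both strains labelled as lacking SIR4 than in the other 2, against 32.9% of all genes.

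The effect of each deletion was set side by side with the other gene present and absent, where presence of SIR4 is that of the labels. Loss of UBP10 went with a log2 ratio for HMX1 of 2.77 with SIR4 labelled as present and -0.02 with it labelled as absent. For MRS4 the same ratios were -0.16 and 3.24, for ARN1 -0.43 and 1.76, and for CCC2 0.18 and 1.42. FIT2 and FTR1 differed least, at 1.11 and 0.97 and at 0.48 and 0.73. Loss of SIR4 per the labels went with a relative log2 ratio for FRE1 of 1.85 where UBP10 was present and 2.81 where it was absent, so FRE1 was higher both times. For HMX1 the 2 values were 2.30 and -0.49, or 2.79 and 0.01 as deposited, so the sign of the second depended on the scale. None of these differences has a test, since each rests on 4 single arrays. For a given gene, the difference on loss of UBP10 and that on loss of SIR4 are the same contrast of those arrays, apart from the median shifts.

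**Figure D3:**
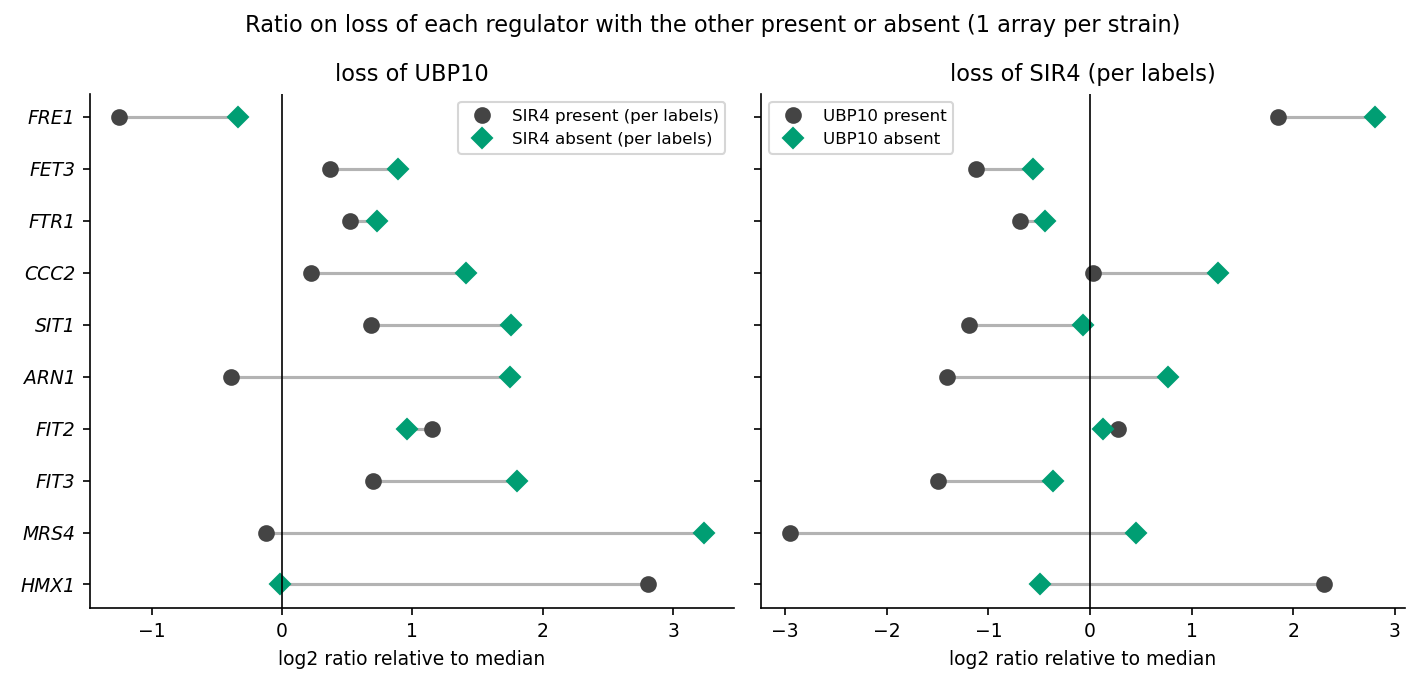
Log2 ratio relative to the median gene (horizontal axis) for loss of UBP10 (left panel) and loss of SIR4 per the labels (right panel) in each of the 10 genes, with the other gene present (circles) or absent (diamonds), joined by a line. The longest lines belong to MRS4 (-0.12 and 3.24 on loss of UBP10) and HMX1 (2.81 and -0.02), and FRE1 lies right of 0 for the labelled loss of SIR4 with UBP10 present or absent.

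Of 12 measured genes of copper uptake and handling, 4 were higher and 1 was lower than wild type on the sir4-labelled array (3 and 3 after centring), against 19.8% and 4.47% of all genes (6.03% and 9.65% after centring). On the double-labelled array 6 were higher and 1 lower (3 and 2 after centring), against 18.6% and 2.07% (4.30% and 6.63%). The median relative log2 ratio of the list was 0.06 and 0.38, so the list as a whole lay near the median gene on the first array. The genes named next were picked because at least 2 mutant arrays called them, so their being high or low there was fixed by that choice. CTR1, the high-affinity copper transporter, read 34.3 units in wild-type cells, 42.8 in the ubp10 mutant, 161.4 on the sir4-labelled array and 102.5 on the double-labelled array. CTR3, another copper transporter, lay at the floor in wild-type cells and in the ubp10 mutant and read 39.1 units on the sir4-labelled array and 40.7 on the double-labelled array, at least 5.86- and 6.10-fold above wild type as deposited and at least 4.16- and 4.18-fold relative. ATX1, the chaperone that serves Ccc2, read 165.9, 83.9, 647.7 and 568.1 units in the order wild type, ubp10 mutant, sir4-labelled array and double-labelled array.

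None of these 3 genes was called in the ubp10 mutant. IRC7, a cysteine desulfhydrase gene of the same list, went the other way, with 172.1, 85.8, 51.5 and 76.8 units, and was called lower in all 3 mutants as deposited. The gene of the copper activator, MAC1, read 22.7, 22.2, 42.3 and 56.2 units and was called higher on the double-labelled array alone as deposited (relative ratio 1.70). In the ubp10 mutant the list had 2 of 12 higher, the metallothionein gene CRS5 and its activator CUP2, and 1 lower. After centring 2 were higher and 0 lower. Among all genes 9.44% were higher and 8.42% lower there as deposited. The 2 CUP1 metallothionein copies share 1 probe set, which read 2707.7, 3946.0, 1554.1 and 1468.4 units. SOD1, the copper-zinc superoxide dismutase gene, and CCS1, the gene of its copper chaperone, lay on the low side: relative to the median both were called lower than wild type on the sir4-labelled array, with log2 ratios of -1.35 and -1.31. SOD1 read 1889.3, 1341.5, 1043.8 and 1212.4 units. MAC1, CRS5, CUP2, SOD1 and CCS1 were named after their values were seen.

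**Figure D4:**
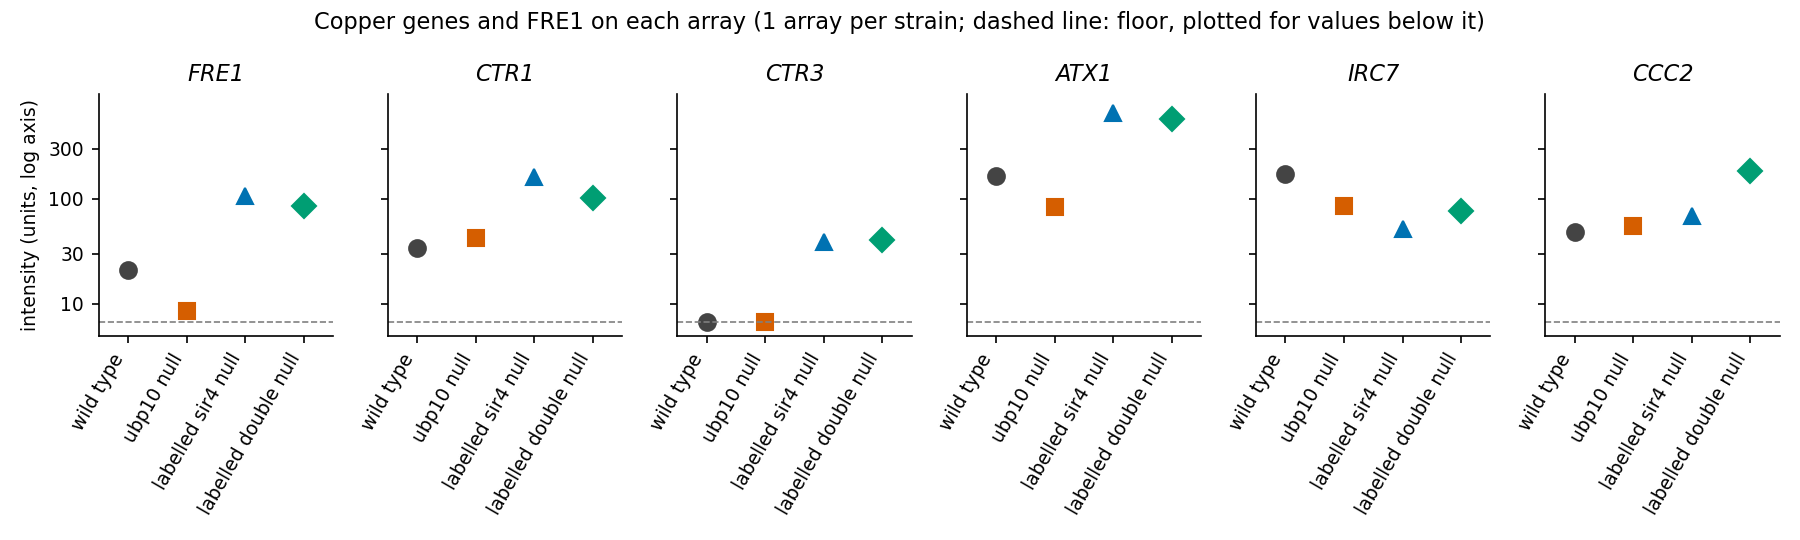
Intensity (vertical log axis, units) of FRE1, of 4 other copper genes and of CCC2 on the 4 arrays (horizontal axis), 1 point per array, with the floor of 6.67 units dashed and lower values drawn at it. FRE1, CTR1, CTR3 and ATX1 are high on the sir4-labelled array and on the double-labelled array, IRC7 is highest in the wild type, and CCC2 is high on the double-labelled array alone.

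The siderophore and cell wall genes outside the 10 were ARN2, ENB1 and FIT1, named here after their values were seen. On the sir4-labelled array 0 of the 3 were called, against 19.8% of all genes higher than wild type and 4.47% lower. On the double-labelled array 1 was higher than wild type, against 18.6% of all genes. Compared with the sir4-labelled array 2 were higher there, against 7.94% of all genes. ARN2, a transporter of fusarinine-type siderophores, read 20.1 units in wild-type cells, 19.2 in the ubp10 mutant, 17.8 on the sir4-labelled array and 59.8 on the double-labelled array, a pattern with the double-labelled array set apart as for CCC2. FIT1, a further cell wall mannoprotein gene, read 11.3, 19.2, 9.9 and 21.3 units. ENB1, the enterobactin transporter, read 110.6, 186.4, 123.0 and 208.4 units and was not called in any comparison. ENB1 and FIT1 were higher, as deposited, in both strains lacking UBP10 than in the other 2. This is the split described above for 5 of the 10 genes, and it was found for 15.3% of all genes.

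Iron regulators were measured for 9 of 10 listed genes. In the ubp10 mutant 1 was called higher than wild type and 1 lower, against 9.44% and 8.42% of all genes. The sir4-labelled array had 1 higher and 1 lower, against 19.8% and 4.47%, and after centring 1 and 2, against 6.03% and 9.65%. On the double-labelled array 4 were called higher than wild type and 0 lower, against 18.6% and 2.07% of all genes, and after centring 2 and 0, against 4.30% and 6.63%. Compared with the sir4-labelled array 4 were higher and 0 lower, against 7.94% and 3.11%. CTH1, which encodes a protein that destabilises messages of iron-using proteins, read 21.5, 59.1, 22.4 and 45.6 units in the order wild type, ubp10 mutant, sir4-labelled array and double-labelled array. Its relative TIS11 was brightest on the double-labelled array, at 26.7 units, and lay at the floor both in the wild type and on the sir4-labelled array. GRX4, a glutaredoxin that restrains Aft1, read 69.0, 103.1, 202.8 and 151.1 units. The activator gene AFT1 itself read 62.0, 82.6, 35.1 and 65.1 units and AFT2 30.7, 29.1, 15.2 and 40.4, both lowest on the sir4-labelled array. There AFT2 was called lower as deposited (2.02-fold). Relative to the median both were called lower there, AFT1 2.49-fold and AFT2 2.84-fold. TIS11, AFT1 and AFT2 were named after their values were seen.

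The remaining lists are given by their counts against wild type, as deposited unless stated. Over all genes the shares higher were 9.44% in the ubp10 mutant, 19.8% on the sir4-labelled array and 18.6% on the double-labelled array, and 6.03% and 4.30% on the last 2 after centring. The shares lower were 8.42%, 4.47% and 2.07%, and 9.65% and 6.63% after centring. Reductase and metal entry genes had 1 of 7 higher in the ubp10 mutant, 2 on the sir4-labelled array and 1 on the double-labelled array, with 0 lower; after centring 0 were called on the last 2. SMF1, a divalent metal transporter, was 2.11-fold higher on the sir4-labelled array and 2.70-fold on the double-labelled array (1.5- and 1.85-fold relative). Of 6 vacuole genes, 1 was lower in the ubp10 mutant, 0 were called on the sir4-labelled array and 2 were higher on the double-labelled array, of which 0 after centring. Among them CCC1, the importer that stores iron in the vacuole, was 2.64-fold lower in the ubp10 mutant and 2.19-fold higher on the double-labelled array as deposited (1.51-fold relative). Of 16 genes of mitochondrial iron import and iron-sulfur assembly, 1 was higher in the ubp10 mutant, 1 was lower on the sir4-labelled array and 0 were called on the double-labelled array; after centring 2 and 1 were lower on the last 2. The one called lower as deposited was ISU1, the assembly scaffold, named after its values were seen, with 215.9, 117.8, 76.8 and 291.9 units, lowest on the array where MRS4 was lowest.

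Of 8 heme synthesis genes 3 were higher on the sir4-labelled array and 3 on the double-labelled array, and 0 after centring; HEM4 and HEM14 were 2.26- and 2.64-fold higher on the double-labelled array as deposited (1.55- and 1.81-fold relative). In the ubp10 mutant, where HMX1 was 6.80-fold higher, 0 of these 8 genes were called. Of 15 iron-using enzymes 1 was higher and 2 lower in the ubp10 mutant, 1 and 2 on the sir4-labelled array, and 2 and 0 on the double-labelled array. After centring the direction turned on the last array, with 0 higher and 2 lower, and the sir4-labelled array had 0 higher and 4 lower. CTA1, a catalase gene, was at the floor in the wild type and read 17.3 and 18.4 units on the sir4-labelled and double-labelled arrays. Of 2 biotin uptake genes, 1 was lower in the ubp10 mutant and 1 was higher both on the sir4-labelled array and on the double-labelled array; after centring 0 were higher on these 2 arrays and 1 was lower on the second. The gene higher as deposited, BIO5, read 7.2 units in wild-type cells, 16.5 on the sir4-labelled array and 19.5 on the double-labelled array. Zinc genes, a comparison list, had 1 of 7 lower in the ubp10 mutant, 2 higher on the sir4-labelled array and 1 higher on the double-labelled array (1 and 0 after centring).

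Over the 78 measured genes of all these iron, copper and heme lists, 10 were higher and 1 was lower on the double-labelled array than on the sir4-labelled array, against 7.94% and 3.11% of all genes, with a median log2 ratio of 0.17 against 0.00 over all genes. In the ubp10 mutant 6 were higher and 6 lower than wild type, against 9.44% and 8.42%, with a median of -0.07. The median of the 10 uptake genes was 1.19 and 0.40 in these comparisons.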

How the data were processed

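Total RNA of 4 yeast strains was measured on 1 array each. The deposited intensity values, 1 for each probe set, came from MAS 4.0 per the labels; they are linear and can be negative. Background correction and scaling are not given in the sources used here. Trimmed means (2nd to 98th percentile) lay between 99.96 and 100.00 on every array, inside the 5% set for using values as deposited. Arrays already scaled to a common trimmed mean would pass this check, so it does not show that their values are comparable. The 98th percentiles did differ: 990.6 was the lowest (double-labelled array) and 1577.1 the highest (ubp10 mutant). Values were used as deposited, and many ratios are also given relative to the median. Of 9275 non-control probe sets, 6504 had 1 gene symbol, all matched to the RefSeq table of R64, giving 5656 genes; 328 had several symbols and 2443 were not listed. The noise SD came from the negative values, mirrored about 0 (median absolute value). Floored probe sets of a gene were averaged on the log2 scale. The number of arrays limits the precision, and no p-value was computed. The call rule was tested on simulated data with an assumed error, where only genes well above the floor were changed and no median shift was set. That simulation does not cover calls on values near the floor, and it gives no replicate error. The members and lists were chosen with earlier results of these data known. Outside the 10 members, the naming rule took up to 4 genes per list called in at least 2 of the 3 mutant comparisons with wild type. Quantile normalization and cyclic loess used R 4.3.3 with limma 3.58.1; the rest used Python 3.11.15, numpy 2.4.6, pandas 2.3.3 and matplotlib 3.10.9.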

Additional observations from a re-analysis of the deposited data

Results flagged for a closer look

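For 3 of the 10 genes the log2 ratio relative to the median gene had opposite signs with the other regulator present and absent, a difference that was not tested, since each strain has 1 array. Presence of SIR4 is that of the labels, and the deposited SIR4 values do not show its loss. For loss of UBP10, MRS4 had -0.12 with SIR4 present and 3.24 with it absent, and ARN1 had -0.39 and 1.75. HMX1 had 2.81 and -0.02 there, and its second value is too small to give a direction. The first MRS4 value is small, and as deposited it was -0.16. For loss of SIR4, MRS4 had -2.95 with UBP10 present and 0.45 with it absent, ARN1 had -1.41 and 0.77, and HMX1 had 2.30 and -0.49. MRS4 and ARN1 had opposite signs as deposited too, but HMX1 on loss of SIR4 did not, with 2.79 and 0.01. As deposited, SIT1 (-0.69 and 0.43), FIT3 (-1.0 and 0.14) and FTR1 (-0.2 and 0.06) had opposite signs for loss of SIR4, and relative to the median they did not. In each pair 1 value rests on the sir4-labelled array, whose 3′ to 5′ control ratios were high. The difference within a pair is the same contrast of the same arrays for either loss, apart from the median shifts. The pairs of a gene are therefore not separate results.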

How the results depend on the processing

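Of the 20 calls made for the 10 genes over 5 comparisons, 13 held under every alternative and 0 changed direction. The number higher in the ubp10 mutant than in the wild type was 2 and became 1 under cyclic loess, with the floor doubled, with a 3-fold ratio, with a brightness minimum of 4 floors, and under quantile normalization without the sir4-labelled array, and 4 with a 1.5-fold ratio. The number lower there was 1 and became 0 with the floor doubled, a 3-fold ratio or the minimum of 4 floors. On the sir4-labelled array, 2 lower became 4 under quantile normalization and cyclic loess, 5 with the median ratio centred or a 1.5-fold ratio, and 1 with a 3-fold ratio. For the double-labelled array against wild type, 5 higher became 3 under cyclic loess and 8 with a 1.5-fold ratio. It became 4 under quantile normalization and with the median ratio centred, where SIT1 was lost. SIT1 was also lost with a 3-fold ratio and under quantile normalization without the sir4-labelled array. Against the ubp10 mutant 3 became 5 with a 1.5-fold ratio, and 2 under quantile normalization, cyclic loess and median centring, where ARN1 was lost. The ARN1 call was also lost with a 3-fold ratio and under quantile normalization without the sir4-labelled array. Against the sir4-labelled array 5 became 8 with a 1.5-fold ratio and 6 under quantile normalization, and CCC2 was lost with a 3-fold ratio. The cause was not tested, beyond what the ratio, floor and brightness alternatives fix by construction. Over all genes, 1120 higher and 253 lower on the sir4-labelled array became 427 higher under quantile normalization, and 253 higher and 482 lower under cyclic loess. On the double-labelled array against wild type, 1051 higher and 117 lower became 293 higher under quantile normalization, and 222 higher and 219 lower under cyclic loess. The brightest probe set per gene, the floor halved, and the floor taken without the sir4-labelled array lost or gained 0 of the 20 calls. For the brightest probe set this was fixed beforehand, since each of the 10 genes has 1 probe set. The halved floor could not change a call either, since all 40 values lay above the floor and each pair was bright enough. The 2 settings without the sir4-labelled array were chosen after seeing the data. No paired analysis was possible because each strain had 1 array, so replicates could not be left out either. Values of FRE1, MRS4 and FIT2 near the floor limit their ratios.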
